A study of Mus musculus with 6 samples.

Results

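Extraembryonic endoderm genes were followed in differentiating mouse embryonic stem (ES) cells that were made to express a pair of microRNAs. The genes were chosen by name, as textbook products of this lineage, and were Afp, Ttr, Rbp4, Trf, Apoa1, Apoe, Amn, Cubn and Dab2. Of these 9 genes, 8 were measured by a probe set that carries only their symbol, out of 18193 genes measured in all. A total of 5 members (Rbp4, Apoe, Amn, Cubn and Dab2) were bright enough to be among the 9997 genes tested. Trf, the gene of the iron carrier transferrin, has no value here, since its only probe set is annotated to both Trf and Srprb.

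The cells were A2.miR200c, an ES cell line derived from A2lox cells in which a transgene makes miR-200c and miR-141 from a doxycycline-responsive promoter. Induced cultures received 500 ng/mL doxycycline on days 2 and 4, and untreated cultures received none. All cultures came from this one line, which had been kept on irradiated embryonic fibroblast feeders and passaged once without them, and all grew as embryoid bodies in Petri dishes in medium with 10% fetal calf serum. RNA was taken on days 3, 4 and 5 and hybridised to Affymetrix MOE430 2.0 arrays, with 1 array for each treatment and day, which gave 3 induced and 3 untreated arrays. No line without the microRNA transgene was treated on these arrays, so the microRNAs and doxycycline itself cannot be told apart. A value of a single day has no error, and each SD given is that of the 3 daily differences. The p-values and intervals rest on the scatter left over in each fit, pooled by limma with a variance taken from other genes. They therefore do not follow from the SD alone. With 1 array for each treatment and day, none of them measures variation between repeated cultures. Precision is limited by how few arrays there are.

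The induced microRNAs are shown here because they define the treatment, as mature sequences from RefSeq (GRCm38.p6, mouse chromosome 6, minus strand) with the seed, bases 2 to 8, in capitals. The seeds differ at 1 of 7 positions, so the pair belongs to separate seed groups.
mmu-miR-200c-3p (chr6:124718324-124718346): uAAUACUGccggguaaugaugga
mmu-miR-141-3p (chr6:124717917-124717938): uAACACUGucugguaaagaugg

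Extraembryonic endoderm is the tissue that arises beside the epiblast in the early mouse embryo and forms the visceral and parietal layers of the yolk sac. Visceral endoderm takes up maternal proteins through the cubilin and amnionless receptor complex and its clathrin adaptors, and secretes lipoproteins and carriers of retinol, thyroid hormone and iron. GATA, SOX, FOXA and HNF transcription factors drive its genes, and an outer layer of it commonly forms on embryoid bodies.

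Over days 3 to 5 the secreted products that are most characteristic of mature visceral endoderm, Afp and Apoa1, were not above background on any of the 6 arrays. The lipid carrier Apoe, the receptor genes Cubn and Amn, the adaptor Dab2 and the retinol carrier Rbp4 were above background on all 6. None of the 5 tested members passed a test of induction, of time or of a change in the induction effect per day, beside 0.0%, 39.9% and 0.0% of all genes tested (limma, adjusted p at most 0.05). Within this, Apoe, Amn and Cubn shared a sequence of values, with the induced array below the untreated one on day 3 and above it on days 4 and 5. The same sequence was shown by 15.0% of all genes tested, and by Ttr, too dim to be tested, on its brightest probe set alone. Background was set at an intensity of 36.7, the 95th percentile of 78 sensory receptor genes (for odours, pheromones, trace amines and taste), and probe sets differ in brightness, so the line is a rough guide. Array medians lay between 34.5 and 36.9, and on each array 48.8 to 50.1% of all probe sets were above the line. A value above it is therefore common. These shares count every probe set, whereas each member is read from its brightest one. In RNA from whole embryoid bodies, fewer cells of a type and less RNA per cell cannot be told apart.

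**Figure D1:**
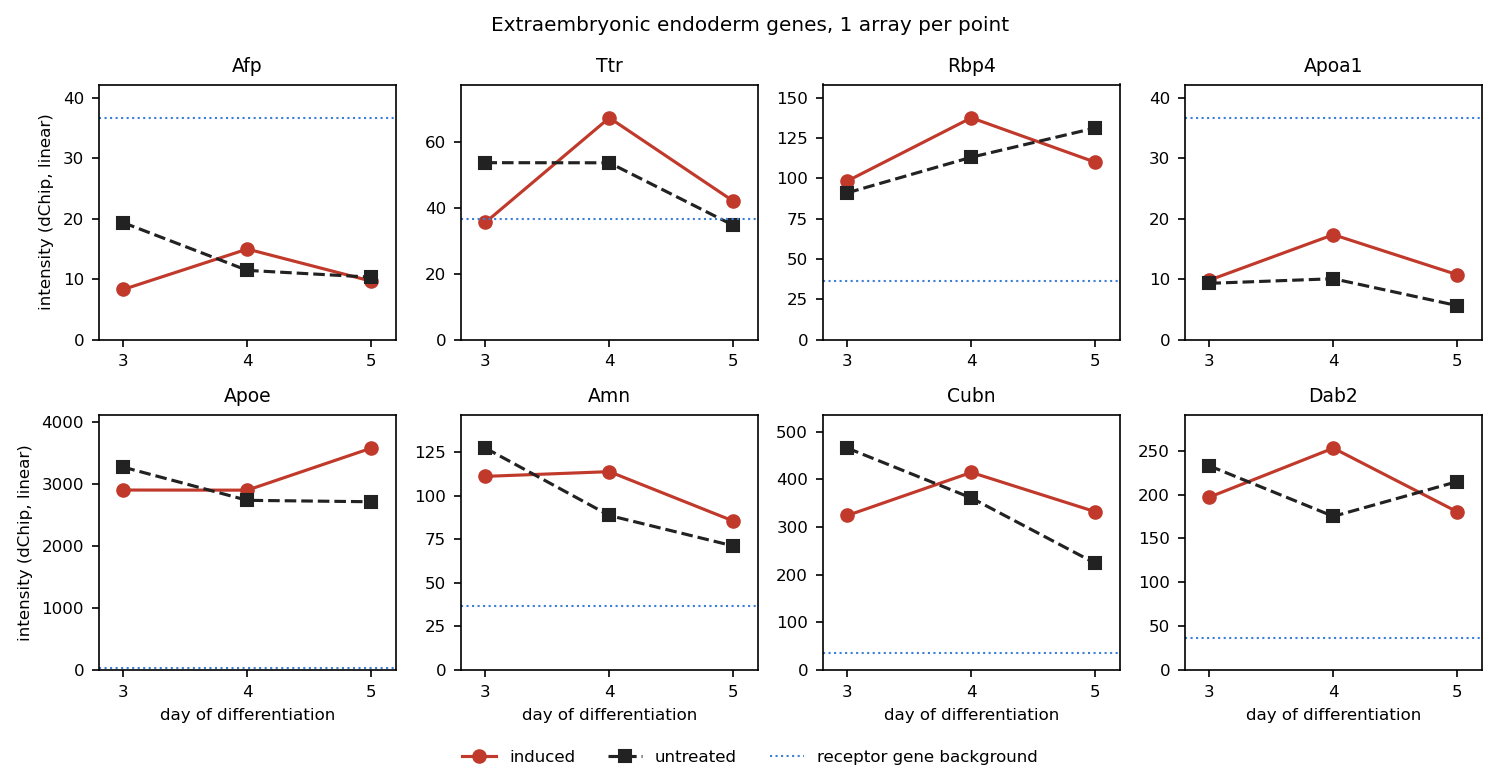
Intensity (dChip model value, linear scale) of the 8 measured members against day of differentiation, 1 array per point, in induced (red circles) and untreated (black squares) cultures, with the receptor gene background of 36.7 dotted. Afp and Apoa1 stay under the line on all 6 arrays, Ttr lies near it, and for Apoe, Amn and Cubn the induced point is the lower one on day 3 and the higher one on days 4 and 5.

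Among the secreted carriers, Afp (Entrez Gene 11576), the fetal counterpart of albumin, had intensities of 8.32, 15.0 and 9.68 in induced cultures on days 3, 4 and 5, against 19.3, 11.5 and 10.3 in untreated cultures. All 5 of its probe sets stayed at or below 19.3 on every array. Apoa1 (Entrez Gene 11806), the main protein of high density lipoprotein, had 9.85, 17.4 and 10.8 in induced cultures and 9.32, 10.1 and 5.64 in untreated cultures. None of its 4 probe sets exceeded 17.4. No fold is given for either gene, since both treatments were at background.

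The promoters of this pair are shown because Foxa1 and Foxa2, whose factors bind promoters of liver and yolk sac genes, rose over the same days in which the pair stayed at background. The windows run from 250 bases before to 50 bases after the start site, plus strand, from RefSeq on GRCm38.p6, and capitals mark matches to TGTTTGC (a FOXA letter string) and GTTAAT (part of an HNF1 site).
Afp (chr5:90490464-90490763): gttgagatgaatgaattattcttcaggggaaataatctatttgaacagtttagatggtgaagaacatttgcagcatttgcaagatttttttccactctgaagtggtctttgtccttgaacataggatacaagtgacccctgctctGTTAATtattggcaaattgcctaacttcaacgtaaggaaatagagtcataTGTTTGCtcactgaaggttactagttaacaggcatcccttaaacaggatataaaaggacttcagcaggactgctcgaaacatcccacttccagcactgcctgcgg
Apoa1 (chr9:46228380-46228679): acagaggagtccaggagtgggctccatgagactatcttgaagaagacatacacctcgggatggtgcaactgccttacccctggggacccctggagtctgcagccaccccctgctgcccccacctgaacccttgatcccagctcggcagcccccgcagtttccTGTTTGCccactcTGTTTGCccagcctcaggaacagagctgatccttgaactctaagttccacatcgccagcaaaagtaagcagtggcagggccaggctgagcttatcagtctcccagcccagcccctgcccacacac

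The Afp window held TGTTTGC at position -55 and GTTAAT at position -105, and the Apoa1 window held TGTTTGC at positions -88 and -75, counted from the start site. Searched on both strands, TGTTTGC or its second spelling as a FOXA core, TGTTTAC, was found in 8.48% of 32851 promoter windows of this length. The share for GTTAAT was 7.10%. Among members above background on all 6 arrays, Apoe and Rbp4 each had a window with a match to the FOXA spellings, and Dab2 had windows with AGATAA (for GATA factors, in 11.2% of windows), CAAAGT (part of an HNF4 site, in 14.4%) and GTTAAT, while Cubn and Amn held none of these. Windows existed for 7 of the 9 members, and both the windows and the strings were chosen after the values were seen. A match is a description of letters, not of a bound site.

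Ttr (Entrez Gene 22139), the carrier of thyroid hormone and of the retinol-binding protein, lay near background, with 35.5, 67.2 and 42.0 in induced cultures and 53.6, 53.6 and 34.7 in untreated cultures. It was above background on 4 of 6 arrays and did not reach the level for testing (an intensity of 80.1 on at least 1 array). Its log2 differences, induced minus untreated on log2(intensity + 50), were -0.28, 0.18 and 0.12 on days 3, 4 and 5. Its other 3 probe sets gave a different picture of day 5. The second brightest had 10.6, 16.6 and 23.2 in induced cultures and 17.3, 14.9 and 67.1 in untreated cultures, and the dimmest had 10.1, 13.2 and 10.7 in induced cultures and 8.71, 5.46 and 48.3 in untreated cultures. On these and on the remaining one, the untreated day 5 array was the only one above background, and the day 5 log2 differences were -0.68, -0.70 and -0.39, against 0.12 on the brightest probe set. The direction for Ttr on day 5 therefore depended on the probe set, with 1 array per treatment behind it.

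**Figure D2:**
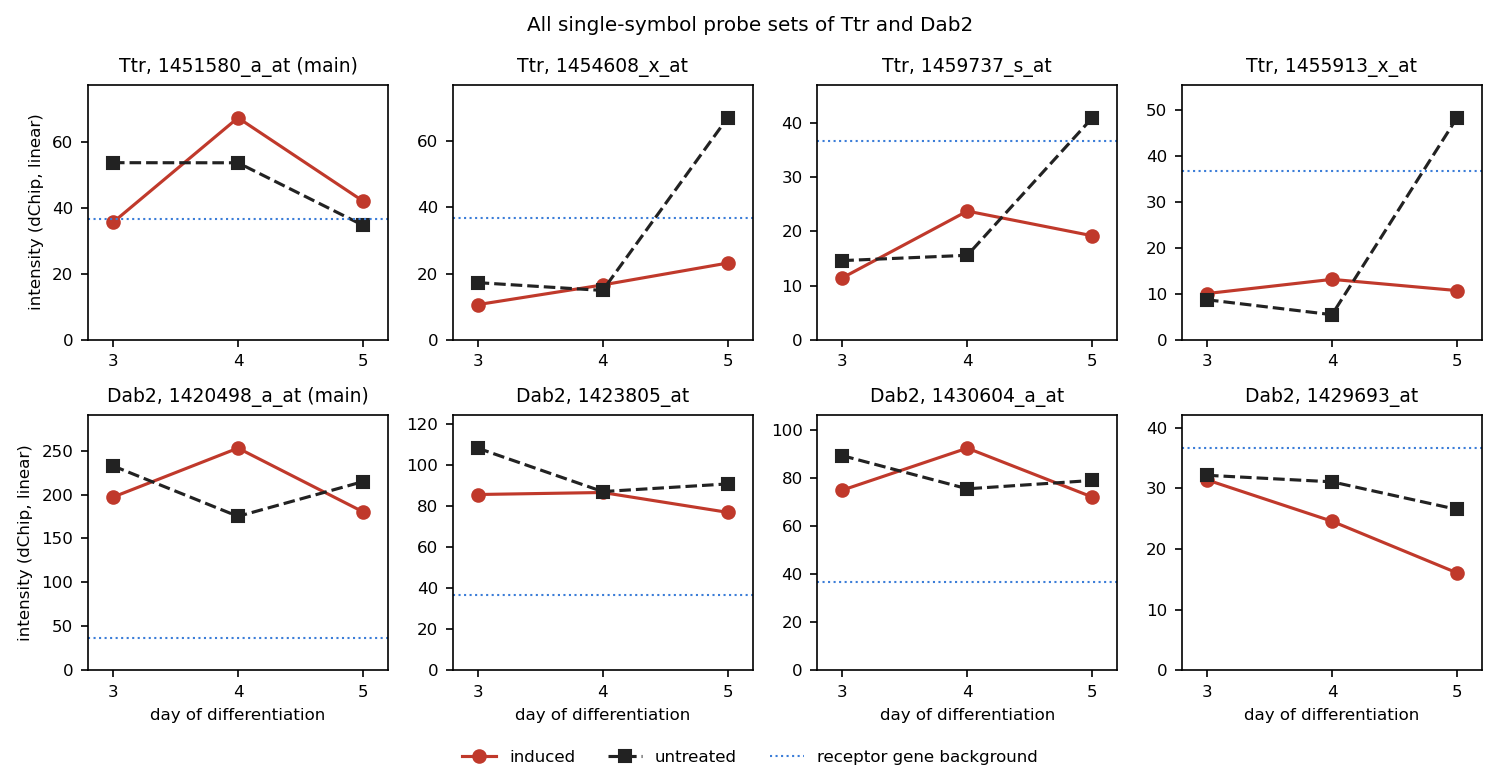
Intensity (dChip model value, linear scale) against day for each single-symbol probe set of Ttr (top) and Dab2 (bottom), induced in red circles and untreated in black squares, 1 array per point, background of 36.7 dotted. The untreated day 5 array stands highest on 3 of the 4 Ttr probe sets, and the day 4 gap of the brightest Dab2 probe set is smaller, absent or turned round on the other 3.

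Rbp4 (Entrez Gene 19662), the plasma carrier of retinol, had 98.4, 137 and 110.0 in induced cultures, against 91.0, 113 and 131 in untreated cultures. The induced cultures were the higher on days 3 and 4 and the lower on day 5, and the groups overlapped. The mean log2 difference was 0.03 ± 0.19 (SD over 3 days), with a 95% interval of -0.25 to 0.31 and an adjusted p of 0.937 for induction (limma with Benjamini-Hochberg adjustment). From day 3 to day 5 its log2 level moved by 0.11 in induced and 0.36 in untreated cultures, and time did not pass the test (limma adjusted p = 0.214).

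Apoe (Entrez Gene 11816), the lipid carrier that cells outside the endoderm such as macrophages also make in quantity, had 2900.3, 2898 and 3575 in induced cultures, against 3269, 2735 and 2712 in untreated cultures. The highest array was induced day 5 and the lowest untreated day 5, and the remaining 4 lay between them with the groups mixed. Log2 differences were -0.17, 0.08 and 0.39, with a mean of 0.10 ± 0.28 (SD over 3 days), a 95% interval of -0.18 to 0.38 and a limma adjusted p of 0.782. The difference grew by 0.28 per day (95% interval 0.16 to 0.40), for which the unadjusted p was 0.00139 and the adjusted p 0.139 (limma, treatment by linear day), so this did not pass over all genes. Of 6 macrophage markers, 5 (Ptprc, Csf1r, Adgre1, Aif1 and Fcgr1) were above background on no array. Cd68, a lysosomal protein that other cells also make, had 108, 135 and 140.1 in induced cultures and 99.1, 77.6 and 65.9 in untreated cultures. The summed macrophage list ranged from 176 to 210.2 in induced and from 131 to 160.0 in untreated cultures. Only Cd68 of this list was above background on any array, so the gap between these ranges is that of Cd68 and not of the list. The part of macrophages in the Apoe values was not tested.

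The uptake machinery of visceral endoderm was measured by Cubn, Amn and Dab2. Cubn (Entrez Gene 65969), which encodes cubilin, a large receptor that binds vitamin B12 with intrinsic factor and many other ligands, had 324, 414 and 332 in induced cultures, against 465, 361 and 224 in untreated cultures. The untreated values were highest on day 3 and lowest on day 5 of all 6 arrays, and the 3 induced values lay between them. Log2 differences were -0.46, 0.18 and 0.48, the widest spread among the members, and their mean was 0.06 ± 0.48 (SD over 3 days; 95% interval -0.42 to 0.55, limma adjusted p = 0.925). The difference grew by 0.47 per day (95% interval 0.23 to 0.71), with an unadjusted p of 0.00333 and an adjusted p of 0.168 (limma, treatment by linear day), which did not pass. The second Cubn probe set, dimmer, had 79.1, 72.1 and 62.4 in induced cultures and 79.8, 64.8 and 52.7 in untreated cultures. Its log2 differences of -0.01, 0.09 and 0.13 ran in the same order of days with a smaller size.

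Amn (Entrez Gene 93835), which encodes amnionless, the membrane partner that carries cubilin to the cell surface, had 111, 114 and 85.5 in induced cultures, against 127, 88.7 and 71.2 in untreated cultures. Both treatments had their lowest value on day 5. The log2 differences were -0.14, 0.24 and 0.16, with a mean of 0.09 ± 0.20 (SD over 3 days; 95% interval -0.20 to 0.37, limma adjusted p = 0.821). From day 3 to day 5 the log2 level moved by -0.25 in induced and -0.55 in untreated cultures. The average of -0.40 had an unadjusted p of 0.0321 and an adjusted p of 0.0712 (limma). Amn thus came nearest to a call over time among the members and did not reach it. Of all 9997 genes tested, 5055 had an unadjusted p under 0.05 in this limma test.

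Dab2 (Entrez Gene 13132), a clathrin adaptor that brings receptors of the megalin and cubilin kind into endocytic vesicles, had 197, 253 and 180.3 in induced cultures, against 233, 175 and 215 in untreated cultures. The induced array was the higher on day 4 alone, and the log2 differences were -0.19, 0.43 and -0.20. Their mean was 0.01 ± 0.36 (SD over 3 days; 95% interval -0.37 to 0.40, limma adjusted p = 0.987). The day 4 difference of 0.43 was the largest of any member on that day, and on the other 3 Dab2 probe sets it was 0.18, -0.005 and -0.12. The other probe sets thus gave a smaller difference on day 4 or one of the opposite sign.

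Taken by day, 1 of 5 tested members was higher in induced cultures on day 3, 5 of 5 on day 4 and 3 of 5 on day 5. Their median log2 differences were -0.17, 0.20 and 0.16, against 0.00, 0.02 and 0.02 over all genes tested, of which 51.8, 54.0 and 53.2% were higher. None of the 8 measured members reached a 2-fold difference on any day, as did 0.02% of all genes tested on day 3, 0.58% on day 4 and 3.49% on day 5. The middle 90% of all genes lay between -0.25 and 0.23 on day 3, between -0.29 and 0.34 on day 4 and between -0.47 and 0.60 on day 5. Cubn on day 3 and Dab2 on day 4 lay outside these ranges, as did Ttr, which was not tested, on day 3 at -0.28, and no measured member did on day 5. The order of lower on day 3 and higher on days 4 and 5, shown by 3 of 5 members, was shown by 1498 genes (15.0% of those tested). No tested member had the same sign on all days, against 33.6% of all genes.

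**Figure D3:**
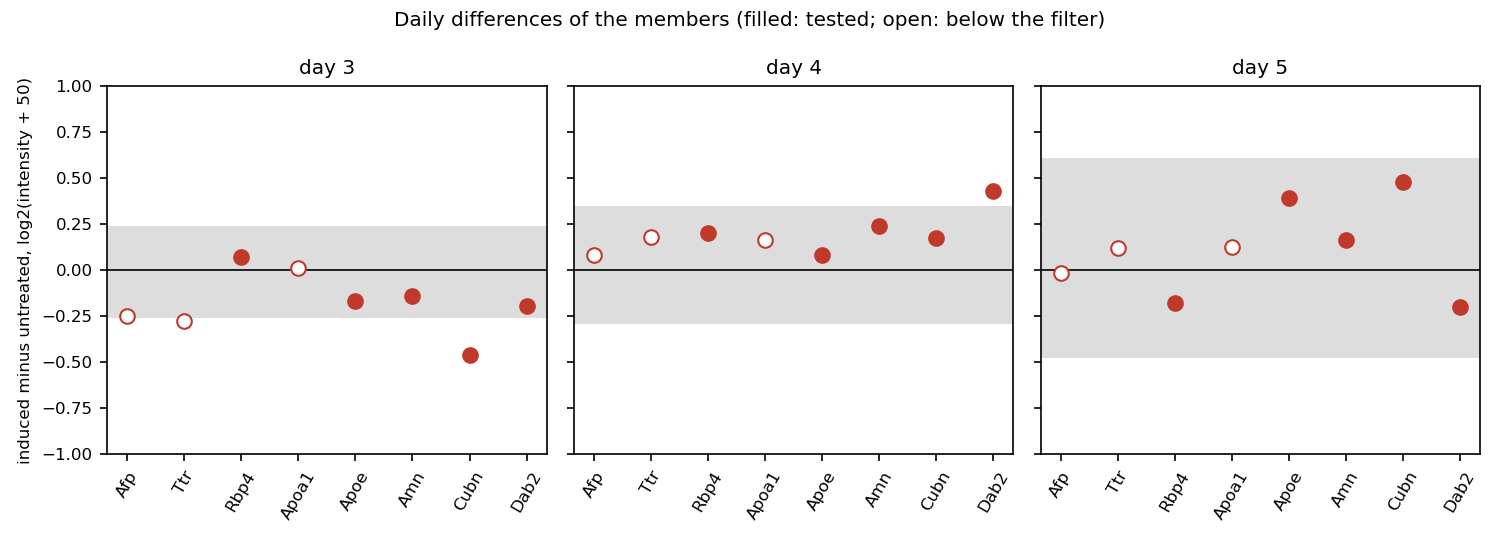
Log2 difference, induced minus untreated on log2(intensity + 50), of each measured member on days 3, 4 and 5 (filled, tested; open, too dim to be tested), with the range of the middle 90% of all genes tested in grey. Cubn at -0.46 and Ttr at -0.28 lie below the grey range on day 3 and Dab2 above it on day 4 at 0.43, and every tested member is above 0 on day 4.

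In the test of induction, 0 of 5 members were called, beside 0.0% of all genes. At an unadjusted p under 0.05 limma gave 0 members and 842 genes, and the smallest adjusted p over all genes was 0.573. In the test of day 5 against day 3, 0 of 5 members were called, beside 39.9% of all genes (20.6% higher and 19.2% lower on day 5), and the members' adjusted p ran from 0.0712 to 0.935 (limma). In the test of treatment by day, 0 of 5 members and 0.0% of all genes were called. There, 2 members (Apoe and Cubn) and 1322 genes had an unadjusted p under 0.05, with a smallest adjusted p of 0.105 over all genes (limma).

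Over time within a treatment, no member moved by 2-fold on the log2(intensity + 50) scale, while 7.74% of all genes tested did in induced cultures and 10.8% in untreated cultures. Cubn moved by 0.03 on the log2 scale in induced and -0.91 in untreated cultures, the smallest move of the 5 tested members in induced and the largest in untreated cultures. Its untreated intensity on day 3 was 2.08 times that on day 5 before the 50 was added. Apoe moved by 0.30 in induced and -0.27 in untreated cultures, and Dab2 by -0.10 in induced and -0.09 in untreated cultures. The median over the 5 was 0.03 in induced and -0.27 in untreated cultures, against 0.02 and -0.02 over all genes.

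The other genes of the lineage were described from lists that were also set with earlier results of these data known. A gene low on day 3 can be among the tested ones through day 5 alone, so counts of these lists hold for the tested genes and are not evidence on a list. Of 6 transcription factors tested, 5 rose between days 3 and 5 on the average of both treatments (limma, adjusted p at most 0.05), beside 20.6% of all genes tested. None was called for induction, and neither was any other gene tested. Sox17, an endoderm determinant, had 185, 690.1 and 3875 in induced cultures, against 169, 1502 and 2914 in untreated cultures, and rose by 3.91 on the log2 scale (adjusted p = 0.00284). Gata6, a factor that starts primitive endoderm, rose by 3.08 and Foxa2, a pioneer factor of endoderm, by 3.04, while Foxa1 rose by 2.26 and Gata4 by 1.54. Sox7 had an average log2 change of 1.44, from 0.48 in induced and 2.40 in untreated cultures, and did not pass (limma adjusted p = 0.0665). Hnf4a, the nuclear receptor that visceral endoderm needs to secrete its carriers, was above background on no array with any of its 4 probe sets, and the brightest had 16.12, 16.04 and 16.53 in induced cultures and 23.0, 15.7 and 33.8 in untreated cultures. Foxa2 and Sox17 are also on the definitive endoderm list, of which 6 of 7 tested genes rose, beside the same 20.6% of all genes. The remaining 1, Trh, did not pass on the average of 0.36 in induced and -1.54 in untreated cultures.

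Secreted products other than the members were mostly not seen. Of 12 such genes (among them Alb, Ahsg, Apoa2, Apoa4, Apob and the 3 fibrinogen chains), 10 were above background on no array, like Afp and Apoa1. On each array 48.8 to 50.1% of all probe sets were above it. Mttp, which loads lipid onto apolipoprotein B, rose by 0.61 over days 3 to 5 (limma adjusted p = 0.0179), and Apoc2, a cofactor of lipoprotein lipase, had a change of -0.07 that did not pass (adjusted p = 0.715).

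Of 6 tested partners of the cubilin receptor, Clcn5, an endosomal chloride transporter, rose by 0.96 (limma adjusted p = 0.0037) and Lrp2, which encodes megalin, fell by 0.49 (adjusted p = 0.0307). These 2 of 6 stood beside 39.9% of all genes called. The other 4 did not pass, and Lrp1, a receptor of the same family as megalin, had a change of 0.52 (adjusted p = 0.0663). Lrp2 had 398, 373 and 315 in induced cultures, against 387, 333 and 224 in untreated cultures, the same downward order of days as the untreated values of Amn and Cubn. For induction, the largest mean log2 differences in this list were 0.30 ± 0.20 for Lrpap1, the chaperone of megalin, -0.20 ± 0.32 for Lrp1 and 0.20 ± 0.19 for Lrp2 (SD over 3 days), and none passed.

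Genes of the parietal endoderm and basement membrane list, many of which other cells make too, rose in 8 of 8 cases tested. The largest rises were 1.46 for Col4a2, 1.25 for Nid1 and 1.23 for Col4a1 on the log2 scale. Plat, on the same list, rose by 0.78 (limma adjusted p = 0.00976) and was above background on all 6 arrays. Thbd, also on it, was above background on no array. Of 6 anterior visceral endoderm genes, 4 rose (Dkk1 by 4.76, Lhx1 by 4.67, Cer1 by 4.20 and Hhex by 1.36). Lefty1, a Nodal inhibitor that ES cells also make, fell by 2.94. Genes of the definitive endoderm and anterior streak list rose over the same days, and which cells made these anterior genes was not tested. Otx2 had an average change of -1.18 that did not pass (limma adjusted p = 0.137). This average joins -0.09 in induced and -2.27 in untreated cultures. Early mesoderm genes rose in 4 of 4 cases tested (Aplnr by 6.46, Kdr by 4.55 and Pdgfra by 3.51). The counts of these lists stand beside 20.6% of all genes tested that rose and 19.2% that fell. None of these lists held a gene called for induction, and neither did the rest of the genes tested, so this does not set the lists apart. Differences of single days, which had no test, were large for some of their genes. On the log2 scale, induced minus untreated, Kdr had -2.25 on day 4 and Cer1 had -1.80 on day 4 and 2.12 on day 5. Lefty1 had 2.16 and Otx2 2.14 on day 5, while Hhex had -0.23 on day 4 and 0.05 on day 5.

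**Figure D4:**
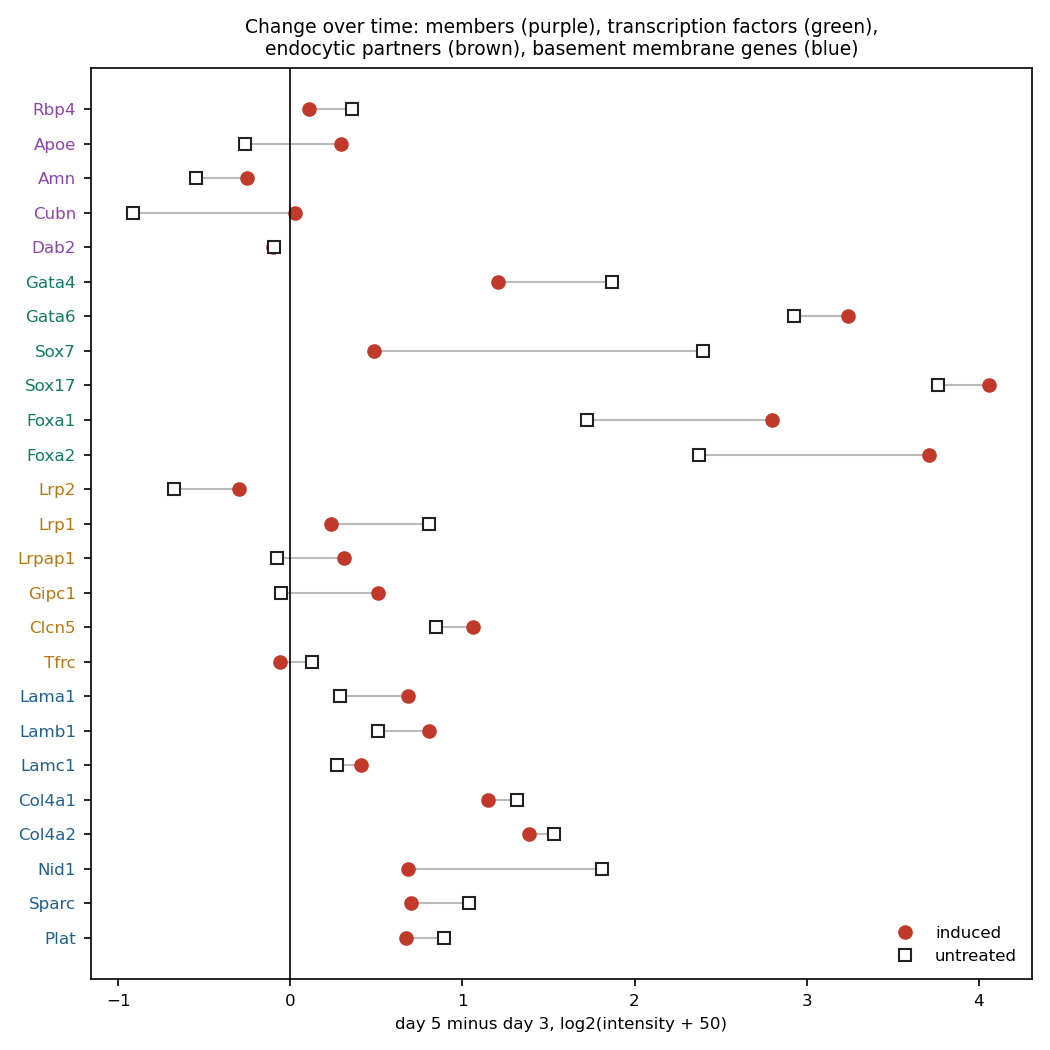
Change from day 3 to day 5 on log2(intensity + 50) in induced (red circles) and untreated (open squares) cultures, 1 array per treatment and day, for the 5 tested members (purple), transcription factors (green), endocytic partners (brown) and basement membrane genes (blue). Members lie between -0.91 and 0.36, while Sox17 moves by 4.06 in induced and 3.76 in untreated cultures.

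Markers of the lineage were therefore detected in part, and whether the lineage itself was present was not tested. The 6 tested transcription factors were above background on all 6 arrays, as were the receptor genes and the adaptor. Foxa2 and Sox17 are also on the definitive endoderm list. Early mesoderm genes rose over the same days, and which cells made any of these factors was not tested. The defining secreted products Afp and Apoa1 and the factor Hnf4a were not detected. Ttr was above background on 4 of 6 arrays and too dim to be tested. Markers of other cells that the cultures could hold moved as well. The summed trophoblast list ranged from 770.0 to 3870 in induced and from 1070 to 4158 in untreated cultures, and most of that sum was Eomes, which is also on the definitive endoderm list. Without Eomes the sum ranged from 271 to 506 in induced and from 302 to 1275 in untreated cultures. On day 5, Cdx2 had 485 and Hand1 528 in untreated cultures, against 66.4 and 128 in induced cultures. Over time, 3 of 5 tested genes of this list (Eomes, Cdx2 and Gata3) rose, beside 20.6% of all genes (limma, adjusted p at most 0.05). Tfap2c was above background on all 6 arrays and did not pass, while Elf5, Ascl2 and Tpbpa were above background on no array. The summed feeder fibroblast list ranged from 225 to 304 in induced and from 218 to 899 in untreated cultures. Its top value was the untreated day 5 array, where Col1a1 alone had 577, and without Col1a1 the sum ranged from 214 to 241 in induced and from 209 to 322 in untreated cultures. All 3 tested genes of this list rose over time, beside 20.6% of all genes (limma, adjusted p at most 0.05). On the log2 scale Col1a1 rose by 2.46, Postn, above background on 1 array alone, by 0.95, and Col1a2, above it on all 6, by 0.47. Dcn, too dim to be tested, had log2 changes of -0.60 in induced and -1.02 in untreated cultures. Thy1, also too dim, had -0.55 in induced and -0.24 in untreated cultures, while Lum was above background on no array. The part of these cells in the values of Apoe, Dab2 and Rbp4 was not tested.

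Cubn had the widest range of log2 values among the tested members (0.91), and 9996 other genes were ranked by their Pearson correlation with it over the 6 arrays, as a description. The 5 nearest were Zfp949 (r = 0.994), Morc2a (r = 0.984), Gpatch2 (r = 0.984), Pkp4 (r = 0.983) and Gnpnat1 (r = 0.978). Zfp949 had 60.9, 85.3 and 67.5 in induced cultures and 99.6, 70.7 and 40.6 in untreated cultures, the same order of the 6 arrays as Cubn. Among the other members, Amn stood at rank 245 (r = 0.859), Apoe at 3466 (r = 0.39), Dab2 at 3830 (r = 0.33) and Rbp4 at 6851 (r = -0.41). The arrays share days and a single line, and 6 points leave many genes with a high r.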

How the data were processed

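The deposited values are intensities that the authors normalized and modelled in dChip, 1 linear value per probe set and array; the dChip version is not given in the sources used here, and no detection calls were used. Of 45037 probe sets, 34945 carried 1 gene symbol in the platform annotation, 932 carried several and 9160 none. Each gene was taken from the single-symbol probe set that was brightest on average across all 6 arrays. Tests ran in R 4.3.3 with limma 3.58.1 (eBayes with trend, two-sided) on log2(intensity + 50), which damps differences at low intensity, for the 9997 genes whose highest value reached the median of all gene values (80.1), with Benjamini-Hochberg adjustment at 0.05. Induction and day 5 minus day 3 came from a fit with treatment and day as factors (2 residual degrees of freedom, 3.05 added by limma), and treatment by linear day from a second fit (1 residual and 4.78 added). Differences of single days had no test and were counted at 2-fold. In simulated arrays of this layout, 200 of 9997 genes changed by 2-fold. The fits recovered 87.5% for induction with 6 false calls, 72.5% for time with 4, and 24.0% for a 2-fold change per day with 2. A count of 0 for treatment by day therefore says little. The simulated induction was the same shift on all 3 days, whereas 2 genes differed by 2-fold on day 3 and 349 on day 5. The 87.5% thus does not hold for differences that grow or change sign, and a count of 0 for induction says little about those.

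All members are named. The plan was to name, from each companion list, up to 3 tested genes with the largest mean difference and up to 3 with the largest change over time. It was not followed for Cxcr4, Gsc, Mixl1, Mesp1, Lama1 and Lamc1, whose values are not given. Others named are those counted in 5 or fewer, list members given as examples, or chosen after their values were seen. Members and lists were chosen with earlier results of these data known. Alternatives were pseudocounts of 16 and 100, no filter, quantile normalization, the mean of a gene's probe sets, no trend, no day term, treatment by linear day added, and each day left out.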

Additional observations from a re-analysis of the deposited data

Results flagged for a closer look

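Apoe was flagged because its change from day 3 to day 5 had opposite signs in the 2 treatments, 0.30 in induced and -0.27 in untreated cultures, a difference of 0.56 on the log2 scale. Cubn was flagged in the same way, with 0.03 in induced and -0.91 in untreated cultures, a difference of 0.94. For Cubn this rests on the brighter of its probe sets, since the dimmer one had -0.20 in induced and -0.34 in untreated cultures, a difference of 0.14 with the same sign in both treatments. The opposite signs themselves were not tested, with 1 array per treatment and day. The related limma test of treatment by linear day gave adjusted p of 0.139 for Apoe and 0.168 for Cubn, which did not pass. Only genes above background on all 6 arrays with a difference of at least 0.5 were considered, and both conditions were set after the members' values had been seen.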

How the results depend on the processing

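The count of members called stayed at 0 in every alternative run, with adjusted p (limma) no lower than 0.302 for induction, 0.0516 for time and 0.0914 for treatment by day. Induction estimates turned round for Dab2 to -0.062 with the mean of its probe sets and -0.20 without day 4, for Rbp4 to -0.053 without day 4, and for Apoe to -0.044 and Cubn to -0.14 without day 5. Time estimates turned round for Apoe to -0.0384 with quantile normalization, and without day 3, where only day 5 minus day 4 can be had, the Rbp4 value was -0.0384. Over all genes, induction called 2 genes without day 5 and 145 with treatment by linear day added, against 0. Time called 2454 genes without day 4, against 3984, and 241 without day 3, which is the shorter step from day 4 to day 5. Also, treatment by day called 11 with a pseudocount of 100 and 2 with quantile normalization, against 0. With a pseudocount of 16, 1 member, Cubn, passed 2-fold over time in untreated cultures, against 0. The causes were not tested, beyond the fewer arrays left without a day and the changed interval without day 3. Induced and untreated arrays were paired by day, through day as a factor, in the fit reported, and replicate numbers gave no further block, since each group has replicate 1 alone. The arrays limit the precision, and the dimmest members (Afp, Apoa1, Ttr) have only an upper bound or a value near background.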
